A study of Mus musculus with 3 samples.

Results

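The receptors for colony-stimulating factors and the growth ligands named with them were read in 3 mouse single-cell RNA libraries, 1 for each condition. The set was listed by gene symbol and holds 10 of the 31053 genes counted, namely *Csf1r*, *Csf2ra*, *Csf2rb*, *Csf2rb2*, *Csf3r*, *Flt3*, *Kit*, *Csf1*, *Csf2*, and *Kitl*. Co-Mac is a culture of C57/BL6 bone marrow cells kept with GM-CSF for 7 days, and VD-Mac is such a culture with 1 µM vitamin D3 (VD3) for 24 h. hSTSG holds the mouse cells of human split-thickness skin that lay in C57BL6/J mice for 14 days, with the grafts of 5 mice pooled. No condition has a replicate library, so no difference between conditions was tested. Intervals are given at 95% and cover counting error only, not differences between cultures or mice.

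M-CSF, the product of *Csf1*, and GM-CSF, the product of *Csf2*, act on myeloid cells through different receptor families. The M-CSF receptor is a receptor tyrosine kinase, as are the receptors encoded by *Flt3* and *Kit*. The GM-CSF receptor pairs an alpha chain of its own with a beta chain that the receptors for IL-3 and IL-5 also use, and the G-CSF receptor encoded by *Csf3r* also signals through Janus kinases.

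The kept cells numbered 7257 in Co-Mac, 8825 in VD-Mac, and 2144 in hSTSG. Their median depth was 15804, 12089, and 6637.5 gene UMIs. Each culture had UMIs of 9 of the 10 members, and hSTSG had UMIs of all 10. Levels are in CPM, in which the UMIs of a gene are scaled to the sum over genes in those cells. A level of 10 CPM was reached by 4 members in Co-Mac, 5 in VD-Mac, and 10 in hSTSG.

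**Figure D1:**
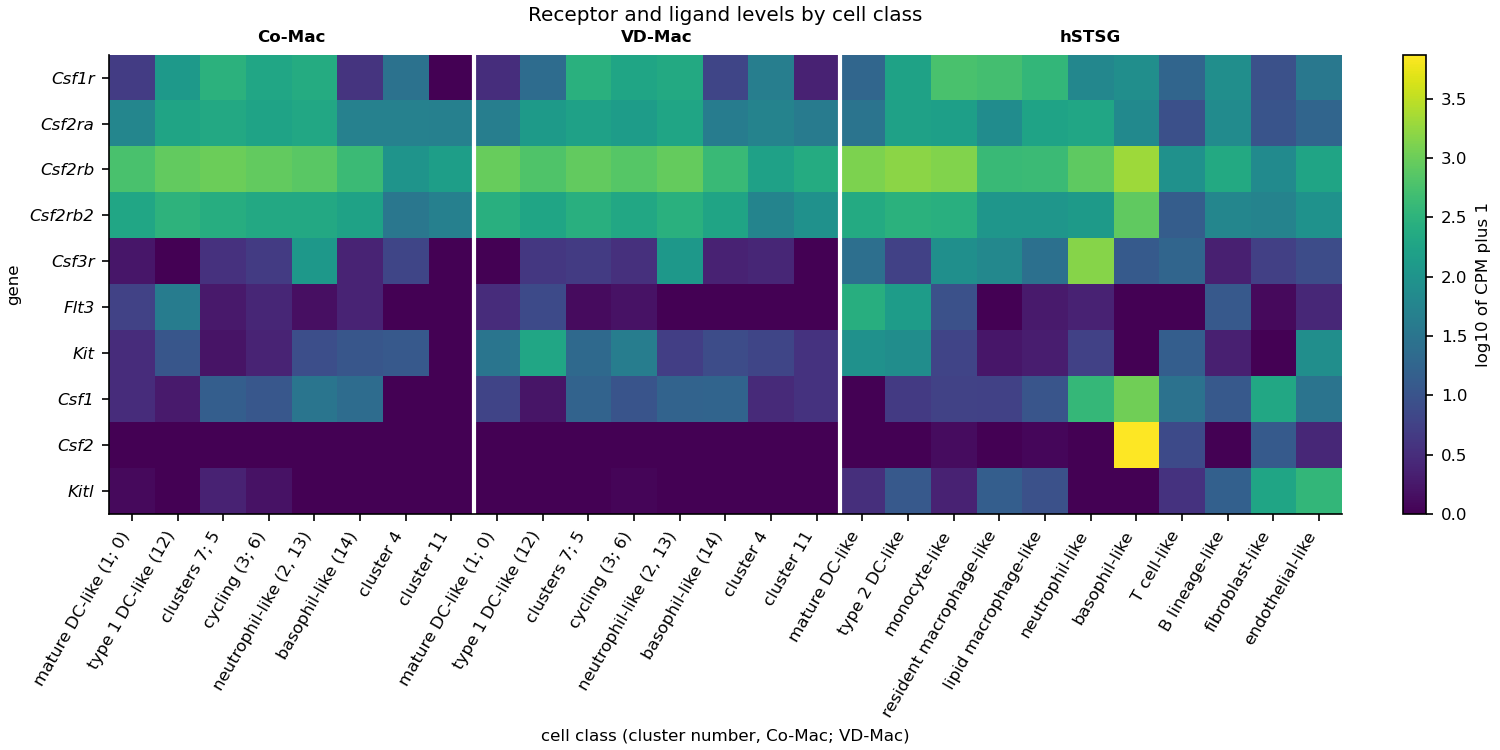
Levels of the 10 members in CPM by library and cell class, on a log10 scale after adding 1. Classes of fewer than 50 cells in hSTSG (mature dendritic cell-like, basophil-like, B lineage-like, and endothelial-like) rest on few counts.

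VD-Mac was compared with Co-Mac over all cells and then within cell classes. Over all cells, *Kit* was higher in VD-Mac and was the only one of the 10 members to pass the call, which asks for a 2-fold difference and for 10 CPM in the culture with the higher level. The same call was passed by 525 of the 7732 genes that reached 10 CPM in either culture (6.79%), of which 167 (2.16% of the genes) were higher in VD-Mac. Of the 5 members at that level, which *Kit* reached in VD-Mac only, 3 had a ratio above 1 and 2 a ratio below 1. Of the 7732 genes, 3012 had a ratio above 1 and 4720 a ratio below 1.

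Classes were matched between the cultures by marker list, and a list often led in different clusters of the 2 cultures, so the clusters compared are named by number. Mature dendritic cell (DC)-like cells are mainly cluster 1 in Co-Mac (2618 of 2628 cells) and cluster 0 in VD-Mac (2947 of 2960). The macrophage list scored highest in cluster 7 of Co-Mac (1.11) and in cluster 5 of VD-Mac (1.37), which was left unnamed because its 10 leading genes include the platelet gene *Pf4* and none of that list. Clusters 3 of Co-Mac and 6 of VD-Mac are led by genes of the cell cycle. The neutrophil list scored 4.63 in cluster 13 (139 cells), with 5 of its markers among the 10 leading genes. In cluster 2 (1909 cells, median 2713 UMIs) it scored 1.34 with 1 such marker. Most neutrophil-like cells of the cultures are thus named on weaker marker evidence, and whether they include other cells was not tested. Neutrophil-like cells (clusters 2 and 13) and type 1 DC-like cells (cluster 12) shared their clusters between the cultures. Basophil-like cells (cluster 14) also shared theirs, but the B lineage list scored there as well (4.32). It summed to 2502 and 7330 CPM in this class, and the platelet list to 10999 and 9002 CPM. With 30 principal components, there was a cluster of 102 B lineage-like cells and another of 63 basophil-like cells.

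Matched classes differ in more than the members, so a ratio within a class may also reflect a different make-up, which was not tested. From Co-Mac to VD-Mac, the monocyte list summed to 1750 and 271 CPM in clusters 7 and 5 and to 1554 and 272 CPM in clusters 3 and 6. Other lists rose in the same pairs, where *Kit* rose too. The neutrophil list summed to 1117 and 2184 CPM in clusters 7 and 5 and to 9876 and 16081 CPM in clusters 3 and 6. The B lineage list summed to 3.28 and 72.3 CPM in clusters 7 and 5 and to 14.9 and 61.1 CPM in clusters 3 and 6. The list of granulocyte-monocyte precursors, which scored best in clusters 3 and 6 (2.04 and 0.99), summed to 587 and 352 CPM there, and to 20.5 and 76.8 CPM in clusters 7 and 5. The type 2 DC list summed to 6675 and 1287 CPM in clusters 7 and 5, and to 2197 and 747 CPM in mature DC-like cells. In clusters 7 and 5, the macrophage list itself summed to 4905 and 3281 CPM. Mature DC-like cells had 327.8 and 170.5 CPM of the macrophage list and 39.4 and 16.6 CPM of the monocyte list. The neutrophil list summed there to 151.8 and 73.25 CPM, and the list of mature DCs itself to 7044 and 5351 CPM. The B lineage list went the other way, at 1.34 and 1.84 CPM. In neutrophil-like cells, the macrophage list summed to 1993 and 666 CPM, the monocyte list to 497 and 218 CPM, and the neutrophil list itself to 42395 and 56237 CPM. In the type 1 DC-like cells, where *Csf1r*, *Flt3*, and *Kit* passed the call, the neutrophil list summed to 82.8 and 1076 CPM, the type 2 DC list to 5161 and 3411 CPM, and the list of type 1 DCs itself to 1116 and 738 CPM.

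*Csf1r* (ENSMUSG00000024621; chromosome 18, 61100598 to 61132149 on the plus strand of GRCm38) encodes the receptor for M-CSF and IL-34. Over all cells it stood at 151 CPM in Co-Mac and 114 CPM in VD-Mac (ratio 0.758, 0.741 to 0.775), which did not pass the call. Across the alternatives this ratio ran from 0.63 to 0.94. Clusters 3 and 6 held 39.5% of all UMIs in Co-Mac and 22.95% in VD-Mac. The order of *Csf1r* levels across 5 named pairs of classes was the same in both cultures. Clusters 7 and 5 were highest, then neutrophil-like cells, clusters 3 and 6, and type 1 DC-like cells, with mature DC-like cells lowest of these. None of the intervals of neighbors in that order overlapped in either culture.

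In clusters 7 and 5, *Csf1r* measured 306 CPM in Co-Mac and 288 in VD-Mac, and in neutrophil-like cells 240.2 and 221. In mature DC-like cells (clusters 1 and 0) it measured 3.84 and 2.17 CPM (ratio 0.565, 0.432 to 0.735), and with each culture clustered alone the ratio was 0.865. The class in which it passed the call was the type 1 DC-like cells, 79 cells in Co-Mac and 118 in VD-Mac. There it fell from 118 to 22.2 CPM, 5.31-fold lower in VD-Mac (ratio 0.188, 0.125 to 0.276). In that class 3 of the 10 members passed the call, 1 higher and 2 lower, as did 16.2% of the genes at 10 CPM.

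After every cell was thinned to 2000 UMIs, *Csf1r* was detected in 45.6% of cells of cluster 7 in Co-Mac and 42.5% of cluster 5 in VD-Mac. In the full counts, with a median of 20350 and 15094 UMIs per cell, it was detected in 98.3% and 93.8%. In mature DC-like cells, the thinned shares were 0.610% and 0.305% (5.14% and 3.01% without thinning, at 14474 and 13286 UMIs). As a level of background, graft fibroblast-like cells, which should lack the receptor, had *Csf1r* at 8.21 CPM, in 12.5% of cells without thinning (at a median of 25010 UMIs). Their thinned share of 0.709% is 1 of 141 cells, and it was 4 of 143 at 1000 UMIs and 6 of 132 at 4000. The mature DC-like cells of both cultures lie under 8.21 CPM, though it comes from another library. Within the cultures, basophil-like cells had 2.84 CPM in Co-Mac and 5.55 CPM in VD-Mac (2 and 4 UMIs). Cluster 11 had 0 and 1.36 CPM (0 and 1 UMIs). How much of the *Csf1r* in mature DC-like cells is background was not tested.

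*Csf2ra* (ENSMUSG00000059326; chromosome 19, 61223957 to 61228429, minus strand) encodes the alpha chain that binds GM-CSF. With all cells together it stood at 144 CPM in Co-Mac and 98.7 CPM in VD-Mac (ratio 0.688, 0.672 to 0.704), short of the call. Its ratio lay below 1 in 7 of the 8 classes compared. The interval lay below 1 in 5 of them: 0.763 in clusters 7 and 5, 0.790 in clusters 3 and 6, 0.766 in mature DC-like, 0.699 in type 1 DC-like, and 0.895 in neutrophil-like cells. The interval includes 1 in basophil-like cells (0.836), in cluster 11 (0.816), and in cluster 4, whose ratio was 1.07 (0.548 to 2.37) on 9 UMIs in Co-Mac. Mature DC-like cells had the lowest level of the 5 classes, 58.1 CPM in Co-Mac and 44.5 CPM in VD-Mac.

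*Csf2rb* (ENSMUSG00000071713; chromosome 15, 78325752 to 78353847, plus strand) encodes the beta chain shared by the receptors for GM-CSF, IL-3, and IL-5. Over all cells it stood at 795 CPM in Co-Mac and 865 CPM in VD-Mac (ratio 1.09, 1.08 to 1.10). In mature DC-like cells the levels were 578 and 949 CPM (ratio 1.64, 1.62 to 1.67), and in neutrophil-like cells 763 and 902 CPM (1.18). The ratio was below 1 in clusters 7 and 5 (0.858), clusters 3 and 6 (0.814), and type 1 DC-like cells (0.726). None of these passed the call. After thinning to 2000 UMIs, *Csf2rb* was detected in 65.5% of the mature DC-like cells of Co-Mac and 79.7% of those of VD-Mac.

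*Csf2rb2* (ENSMUSG00000071714; chromosome 15, 78282507 to 78305721, minus strand) is a mouse paralog of *Csf2rb* whose beta chain serves the IL-3 receptor. Across all cells it measured 224 CPM in Co-Mac and 260.2 CPM in VD-Mac (ratio 1.16, 1.15 to 1.18). Its ratio was above 1 in mature DC-like cells (1.39) and neutrophil-like cells (1.29) and below 1 in type 1 DC-like cells (0.593), as for *Csf2rb*. In clusters 7 and 5 it was 1.04 (1.01 to 1.08), where that of *Csf2rb* was below 1. The genes lie 20030 bases apart. Of the 30-base windows of the *Csf2rb* transcript, 28.8% also occur in that of *Csf2rb2*, and of those in the last 500 bases, near which such libraries are read, 1.49% (7 of 471). Some UMIs of either gene may therefore belong to the other, and how many was not tested. The ratio of *Csf2rb2* to *Csf2rb* spanned 0.248 to 0.381 across classes of at least 50 cells in Co-Mac, 0.286 to 0.429 in VD-Mac, and 0.143 to 0.767 in hSTSG, where fibroblast-like cells were highest.

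*Csf3r* (ENSMUSG00000028859; chromosome 4, 126024550 to 126044440, plus strand) encodes the G-CSF receptor. Its level over all cells was 6.48 CPM in Co-Mac and 5.96 CPM in VD-Mac (ratio 0.920, 0.831 to 1.02), and the ratio ranged from 0.727 to 1.38 across the alternatives for processing. Neutrophil-like cells held 64.5% of its UMIs in Co-Mac and 73.2% in VD-Mac, at 117 and 113 CPM (ratio 0.968, 0.856 to 1.09). Levels in the other classes compared were under 10 CPM. The ratio was 0.647 (0.480 to 0.862) in clusters 3 and 6, with up to 1.05 among the alternatives, and 1.47 (1.03 to 2.11) in clusters 7 and 5. Mature DC-like cells had 29 UMIs in Co-Mac and 1 in VD-Mac. No member passed the call in neutrophil-like cells, where 4.04% of genes did.

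*Flt3* (ENSMUSG00000042817; chromosome 5, 147330741 to 147400489, minus strand) encodes the receptor for FLT3 ligand on DCs and their precursors. Across all cells its level was 2.69 CPM in Co-Mac and 1.10 CPM in VD-Mac (ratio 0.408, 0.331 to 0.501), under the 10 CPM that a call requires. Type 1 DC-like cells had the highest level in both cultures. There *Flt3* fell from 41.4 CPM (47 UMIs) in Co-Mac to 6.53 CPM (10 UMIs) in VD-Mac, which passed the call at 6.34-fold lower (ratio 0.158, 0.0711 to 0.316). In mature DC-like cells it measured 4.72 and 2.12 CPM (ratio 0.449, 0.346 to 0.580).

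*Kit* (ENSMUSG00000005672; chromosome 5, 75574916 to 75656722, plus strand) encodes the receptor for stem cell factor. Over all cells it rose from 1.89 CPM (251 UMIs) in Co-Mac to 30.7 CPM (3573 UMIs) in VD-Mac, a ratio of 16.2 (14.3 to 18.5). The mean over cells of per-cell CPM in place of summed counts gave a ratio of 7.06, the lowest of the alternatives. With the mitochondrial limit at 5% the log2 ratio was 3.35, compared with 4.02. *Kit* passed the call as higher in VD-Mac in 4 of the 8 classes compared, and did not in neutrophil-like or basophil-like cells. The latter class also holds B lineage and platelet markers.

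*Kit* rose 34.2-fold in clusters 7 and 5 (20.1 to 63.1; 0.597 to 20.4 CPM) and 29.0-fold in clusters 3 and 6 (23.0 to 37.1; 1.45 to 42.1 CPM). No other member passed in either pair, where 11.2% and 7.84% of genes did. For clusters 3 and 6 the ratio was 14.6 with the mitochondrial limit at 5%, and for clusters 7 and 5 the same limit gave 55.7 and 30 principal components gave 22.8. In mature DC-like cells it rose 14.5-fold (11.7 to 18.2; 2.15 to 31.2 CPM) and was the only member to pass, beside 4.76% of genes. In type 1 DC-like cells it rose 20.4-fold (11.3 to 41.4), from 9.68 CPM (11 UMIs) to 198 CPM (303 UMIs), the highest level in VD-Mac.

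In neutrophil-like cells *Kit* measured 7.39 CPM in Co-Mac and 4.24 CPM in VD-Mac (35 and 19 UMIs; ratio 0.573, 0.310 to 1.03), and the mean over cells gave 0.334. Cluster 8, with 660 of its 665 cells in VD-Mac, had 23.5 CPM. In cluster 4, *Kit* passed the call as lower in VD-Mac on 2 UMIs in Co-Mac and 17 in VD-Mac (ratio 0.494, 0.117 to 4.41), beside 29.3% of genes. Basophil-like cells and cluster 11, where 15.6% and 22.0% of genes passed, had no member that did.

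After thinning to 2000 UMIs, *Kit* was detected in 0.381% of the mature DC-like cells of Co-Mac and 5.76% of those of VD-Mac (10 of 2625 and 170 of 2952 cells). The full counts gave 3.04% and 31.6%. The thinned shares were 3.80% and 30.5% in type 1 DC-like cells, and 0.244% and 8.29% in clusters 3 and 6. In clusters 7 and 5 they were 0 of 1050 cells (1.14% in the full counts) and 3.77%. In neutrophil-like cells, with 267 and 299 cells too shallow to be thinned, they were 1.51% and 0.732%.

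**Figure D2:**
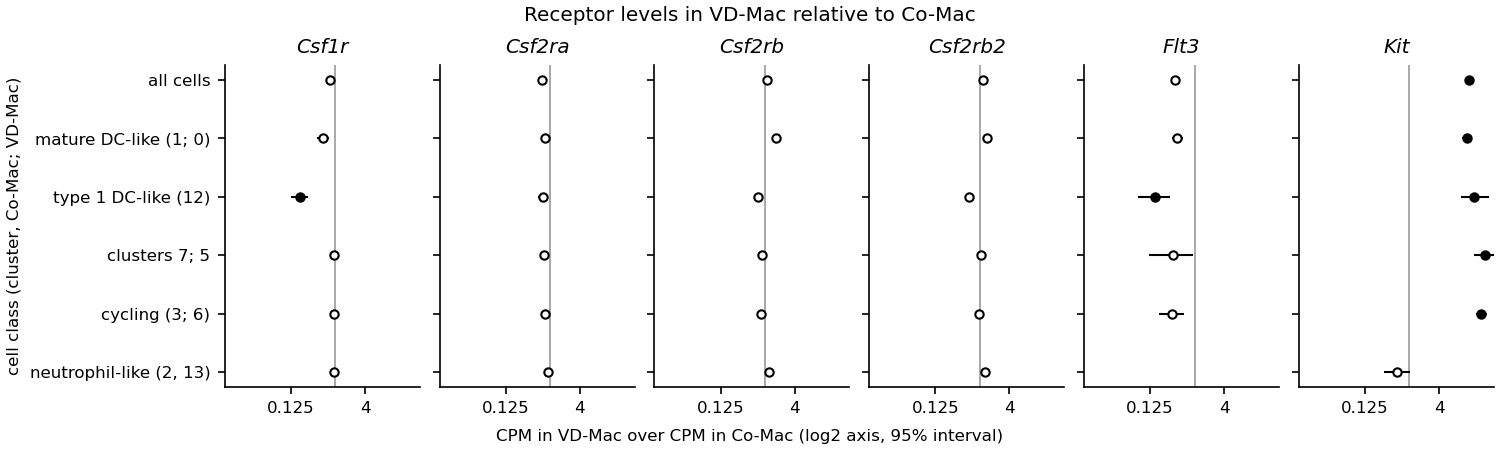
Ratio of CPM in VD-Mac to CPM in Co-Mac for the 6 receptor genes other than *Csf3r*, over all cells and by class, with 95% intervals from counts. Filled points passed the call of 2-fold with 10 CPM or more in the higher culture.

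The ligand genes were low in both cultures. *Csf1* (ENSMUSG00000014599; chromosome 3, 107741048 to 107760469, minus strand) stood at 9.39 CPM in Co-Mac and 8.78 CPM in VD-Mac (ratio 0.934, 0.859 to 1.02). Across the alternatives this ratio ran from 0.607 to 1.04. In neutrophil-like cells, *Csf1* measured 30.6 and 16.3 CPM (ratio 0.531, 0.395 to 0.709), and in mature DC-like cells 2.05 and 5.16 CPM (2.51, 1.94 to 3.27), which is under the 10 CPM for a call.

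*Csf2* (ENSMUSG00000018916; chromosome 11, 54247271 to 54249667, minus strand) is listed at 0 in both cultures, where 3 counts would be 0.0226 CPM in Co-Mac and 0.0258 CPM in VD-Mac. *Kitl* (ENSMUSG00000019966; chromosome 10, 100015630 to 100100416, plus strand), which encodes stem cell factor, had 77 UMIs in Co-Mac and 8 in VD-Mac, 0.581 and 0.0687 CPM. Its ratio of 0.118 (0.0493 to 0.245) is 8.46-fold lower, but both levels are under 10 CPM, and a mitochondrial limit of 5% gave 0.301. In clusters 7 and 5 *Kitl* had 31 and 0 UMIs, at least 8.55-fold lower in VD-Mac against a floor of 3 counts over the class.

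The balance between the receptors was read as the ratio of *Csf1r* to *Csf2rb* UMIs within the same cells. It was far higher in cluster 7 of Co-Mac and cluster 5 of VD-Mac than in the mature DC-like cells of the same culture. In VD-Mac the ratio was lower than in Co-Mac in both DC-like classes and in neutrophil-like cells, and higher in clusters 7 and 5 and in clusters 3 and 6. For neutrophil-like cells this depends on the chain, as *Csf1r* over *Csf2ra* was 1.13 (1.04 to 1.23) in Co-Mac and 1.16 (1.06 to 1.28) in VD-Mac. In the graft the order ran from resident macrophage-like cells, highest, to mature DC-like cells, lowest of the named myeloid classes.

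In Co-Mac the ratio of *Csf1r* to *Csf2rb* was 0.305 in cluster 7 and 0.00664 (0.00564 to 0.00777) in mature DC-like cells, a difference of 5.52 on the log2 scale (5.29 to 5.76) or 46.0-fold. In VD-Mac it was 0.335 in cluster 5 and 0.00228 (0.00184 to 0.00280) in mature DC-like cells, which differ by 7.20 (6.90 to 7.51) or 147-fold. The ratio of mature DC-like cells was 2.91-fold lower in VD-Mac (2.23 to 3.81), a log2 difference of -1.54. It was read from *Csf1r* levels under that of the fibroblast-like cells. The macrophage, monocyte, and neutrophil lists were also lower in VD-Mac in these cells. With each culture clustered alone, the *Csf1r* ratio there was 0.865, and that of *Csf2rb* lay at 1.59 to 1.67 across the alternatives. The balance was not computed for cultures clustered alone. With *Csf2ra* in place of *Csf2rb*, the differences between classes were 4.42 in Co-Mac and 5.16 in VD-Mac, and that between cultures was -0.44, since the levels of *Csf1r* and *Csf2ra* were both lower in VD-Mac in these cells.

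In type 1 DC-like cells, the ratio of *Csf1r* to *Csf2rb* was 0.133 in Co-Mac and 0.0345 in VD-Mac, 3.86-fold lower (2.60 to 5.85). In neutrophil-like cells it was 0.315 and 0.245, a log2 difference of -0.36 (-0.50 to -0.22). It differed in the other direction in clusters 7 and 5, by 0.13 (0.07 to 0.19), and in clusters 3 and 6, by 0.23 (0.17 to 0.28).

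Both receptors were also read in the same cells after thinning to 2000 UMIs. In cluster 7 of Co-Mac, 37.0% of cells had UMIs of *Csf1r* and *Csf2rb*, 45.6% of *Csf2rb* alone, and 8.67% of *Csf1r* alone. In cluster 5 of VD-Mac the shares were 33.0%, 43.2%, and 9.50%. These shares depend on depth. Both genes were found in 16.5% of cells in cluster 7 and 14.6% in cluster 5 at 1000 UMIs. At 4000 UMIs it was 68.9% and 61.4%, with *Csf2rb* alone in 27.7% and 31.2%. In mature DC-like cells *Csf2rb* alone was found in 65.2% of cells in Co-Mac and 79.4% in VD-Mac, and both in 0.305% and 0.271%.

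**Figure D3:**
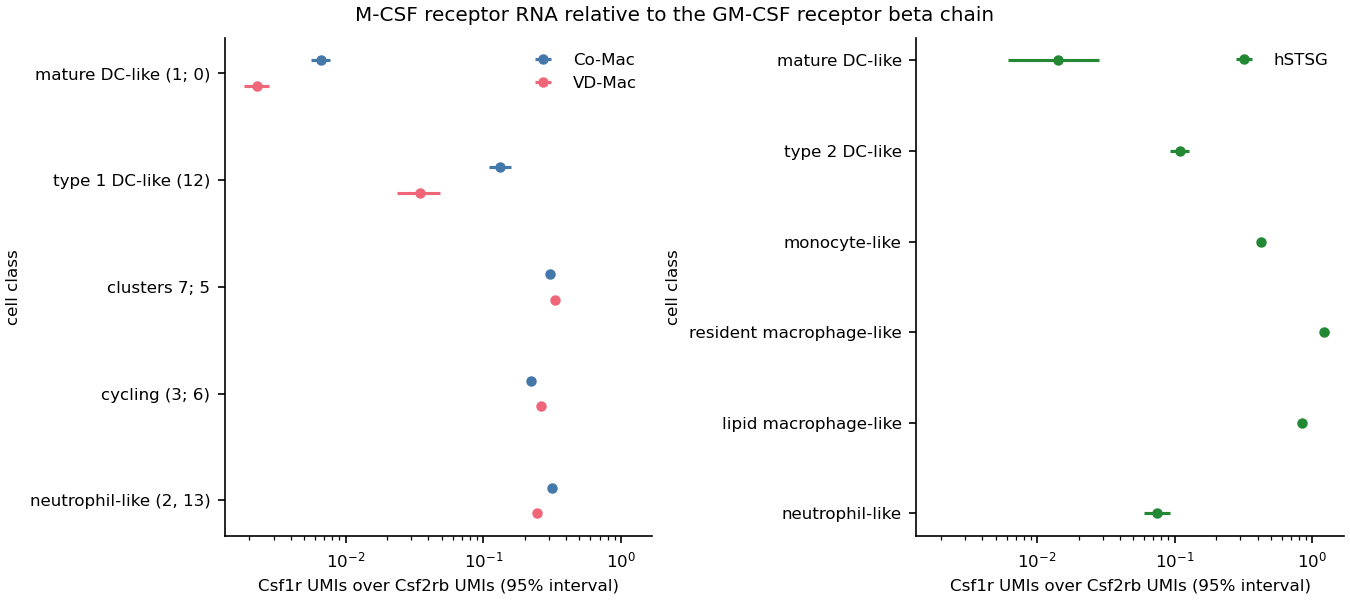
UMIs of *Csf1r* over UMIs of *Csf2rb* by cell class, on a log scale, with 95% intervals from counts. The classes of the cultures are labeled with their cluster numbers in Co-Mac and VD-Mac.

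In hSTSG, *Csf1r* was highest in monocyte-like cells at 581 CPM (554 to 610), followed by resident macrophage-like cells at 517 CPM (491 to 545) and lipid-associated macrophage-like cells at 362 CPM (348 to 377). Type 2 DC-like cells had 171 CPM and neutrophil-like cells 61.7 CPM. The thinned shares of cells were 64.9%, 59.6%, and 44.3% in the first 3 of these classes.

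*Csf2rb* followed another order in the graft, with 1575 CPM in type 2 DC-like cells, 1375 CPM in monocyte-like cells, and 1271 CPM (1168 to 1380) in mature DC-like cells, whose interval overlaps that of the monocyte-like cells. The 14 basophil-like cells had 2032 CPM (1744 to 2354). Lipid-associated and resident macrophage-like cells did not differ beyond their intervals, at 430.2 and 424 CPM. *Csf2ra* had 197 CPM in neutrophil-like cells, 175 CPM in the lipid-associated type, 162 CPM in type 2 DC-like cells, 155 CPM in monocyte-like cells, and 74.2 CPM in resident macrophage-like cells. *Csf2rb2* was highest in basophil-like cells at 838 CPM, with 293 CPM in type 2 DC-like cells and 273 CPM in monocyte-like cells.

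The resulting ratio of *Csf1r* to *Csf2rb* in the graft was 1.22 (1.13 to 1.32) in resident macrophage-like cells, 0.843 (0.798 to 0.890) in the lipid-associated type, and 0.423 (0.399 to 0.448) in monocyte-like cells. In type 2 DC-like cells it was 0.109 (0.0930 to 0.126), which is 3.89-fold below the monocyte-like cells (3.31 to 4.60). Relative to the same monocyte-like cells, the resident type was 2.88-fold and the lipid-associated type 1.99-fold higher. The 37 mature DC-like cells had 0.0143, on 8 UMIs of *Csf1r*. Over all cells of each library, the ratio was 0.481 in hSTSG, 0.190 in Co-Mac, and 0.132 in VD-Mac. Library and cell source differ together there, so no effect of the graft can be read from these values.

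*Csf3r* in the graft lay mostly in neutrophil-like cells, with 1454 CPM and 76.0% of its 2851 UMIs (74.4 to 77.6%), and was detected in 84.3% of thinned cells. The erythroid list, with *Hbb-bs* most abundant, summed to 5843 CPM in this class, and its source was not tested. Monocyte-like cells had 83.3 CPM and resident macrophage-like cells 63.0 CPM. Of the 315 UMIs of *Flt3*, 152 lay in type 2 DC-like and 119 in mature DC-like cells. In type 2 DC-like cells, the list of type 1 DCs also scored (1.66), with UMIs of all 9 markers, and summed to 591.9 CPM. *Flt3* measured 270.0 CPM in mature DC-like cells, 8.22 CPM in monocyte-like cells, and 0 in resident macrophage-like cells. *Kit* measured 90.8 CPM (64.8 to 124) in mature DC-like cells and 79.9 CPM (58.5 to 107) in endothelial-like cells, which do not differ beyond their intervals. Type 2 DC-like cells held 87 of its 232 UMIs. T cell-like cells had 13.2 CPM of *Kit*, and basophil-like and fibroblast-like cells are listed at 0.

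The sources of the ligands in the graft differed between the 3 genes. *Csf1* came mainly from fibroblast-like and neutrophil-like cells, *Csf2* mainly from a few basophil-like cells, and *Kitl* mainly from fibroblast-like and endothelial-like cells. Genes of the human graft were not in the gene list, so these sources were read as mouse cells. The species of single cells was not tested. Shares of UMIs depend on how many cells of each class were captured.

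*Csf1* had 1626 UMIs in 418 cells of hSTSG, 71.8 CPM over all cells. Fibroblast-like cells held 47.2% of them (44.7 to 49.6%) at 210 CPM, and neutrophil-like cells 34.7% (32.4 to 37.1%) at 379 CPM. With each cell weighted alike, as the mean over cells of per-cell CPM, this order turned, with 9.02% for fibroblast-like and 72.5% for neutrophil-like cells, whose median depths were 25010 and 2329 UMIs. The 14 basophil-like cells had 1079 CPM (94 UMIs in 11 cells), and 39 unnamed cells led by *Ccr3* had 574 CPM (22 UMIs). Levels were under 10 CPM in the lipid-associated and resident macrophage-like, monocyte-like, and type 2 DC-like cells, and mature DC-like cells are listed at 0. After thinning, *Csf1* was found in 30.5% of fibroblast-like cells and in 35.3% of neutrophil-like cells, of which 159 were too shallow to be thinned.

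*Csf2* had 705 UMIs in 17 cells of hSTSG, 31.1 CPM over all cells. Basophil-like cells held 91.9% of them (89.7 to 93.8%), 648 UMIs in 5 of the 14 cells, at 7439 CPM. The 5 cells had 241, 220, 136, 39, and 12 UMIs, and each also had UMIs of *Il4* and of the basophil gene *Mcpt8*. T cell-like cells had 12 UMIs in 6 cells. Fibroblast-like cells had 42 UMIs, of which 39 lay in 1 cell with 59111 UMIs and no UMI of *Mcpt8*, *Il4*, or *Il13*. Endothelial-like, lipid-associated macrophage-like, and monocyte-like cells had 1 UMI each, and neutrophil-like cells are listed at 0.

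*Kitl* had 1035 UMIs in hSTSG, 45.7 CPM over all cells. Fibroblast-like cells held 67.3% of them (64.4 to 70.2%) at 191 CPM, in 101 of 144 cells. The 25 endothelial-like cells held 20.4% (18.0 to 23.0%) at 366 CPM, in 21 cells. Resident and lipid-associated macrophage-like cells had 13.3 and 8.07 CPM, and neutrophil-like and basophil-like cells are listed at 0.

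**Figure D4:**
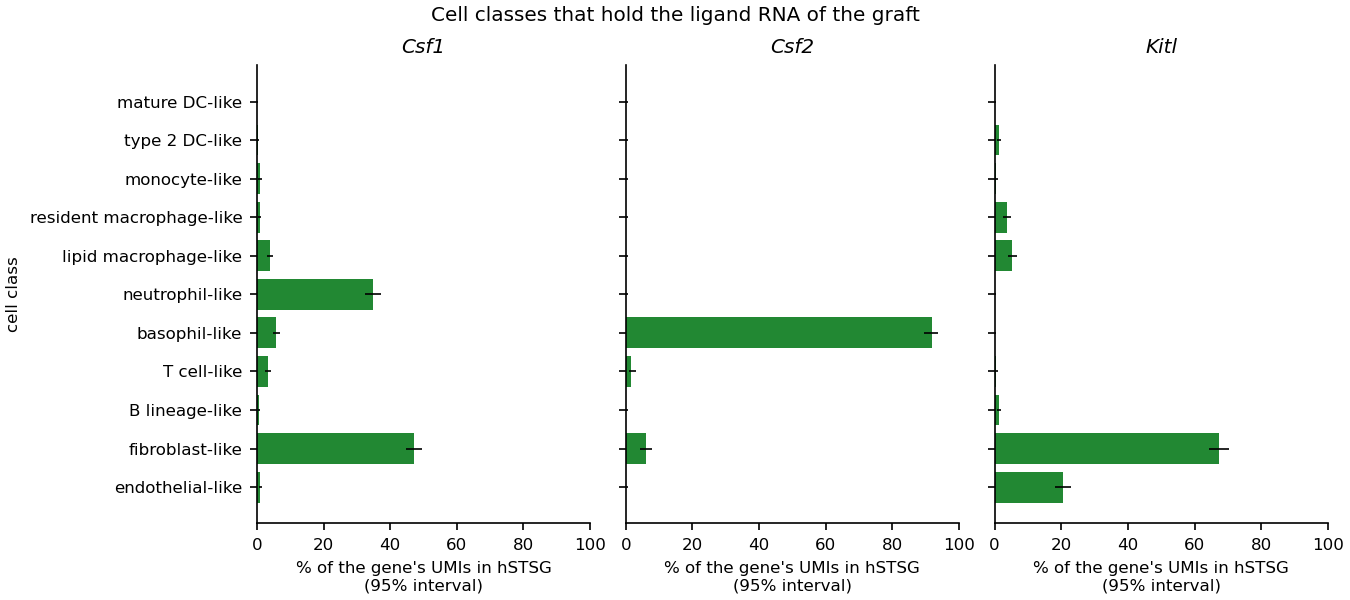
Share of the UMIs of *Csf1*, *Csf2*, and *Kitl* in hSTSG that lay in each named cell class, with 95% intervals from counts.

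Genes that act beside the members were read from 5 lists of 47 genes in all. Over all cells, 37 of them reached 10 CPM in either culture, of which 1 was called higher and 2 lower in VD-Mac, beside 6.79% of all genes at that level. Their median log2 ratio was -0.19, and that of all genes -0.10. *Irf8*, a transcription factor of DCs and monocytes, was higher (133 and 307 CPM; ratio 2.32, 2.28 to 2.36). The survival gene *Bcl2l1* (ratio 0.427, 0.401 to 0.455) and the myeloid transcription factor *Cebpa* (ratio 0.327, 0.306 to 0.350) were lower. The 11 genes of the JAK-STAT list had a median log2 ratio of -0.08 with 1 called lower, and the 15 genes that act near the receptors had -0.31 with none called. The 12 transcription factors had -0.23 over the 10 at that level. Of 4 other receptors 1 reached 10 CPM, and of 5 other ligands none did.

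Within the 5 classes named above, *Irf8* was also called higher in mature DC-like cells (ratio 2.08) and in clusters 7 and 5 (2.91), and *Bcl2l1* and *Cebpa* were lower in clusters 7 and 5 and in clusters 3 and 6. Other list genes called were *Ptpn6* (2.05), *Socs1* (0.467), and *Shc1* (0.455) in clusters 7 and 5, and *Socs2* (2.00) and *Pparg* (0.495) in clusters 3 and 6. In neutrophil-like cells *Maf* (3.39) and *Pparg* (0.329) were called. Some list genes called in these classes are not reported here.

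In type 1 DC-like cells, where *Csf1r* and *Flt3* were lower and *Kit* higher, *Irf8* was called lower (966 and 336 CPM; ratio 0.348), in contrast to all cells. *Irf4* (4.13), *Adam10* (3.20), and *Socs2* (2.68) were called higher, and *Bcl2l1* (0.113) and *Socs1* (0.482) lower. In all, 4 list genes were called higher and 3 lower of the 34 at 10 CPM, beside 16.2% of all genes.

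Among the other ligands in the graft, *Csf3*, which encodes G-CSF, had 726 UMIs, of which fibroblast-like cells held 33.2% and neutrophil-like cells 22.2%. *Il34*, the other ligand of the receptor encoded by *Csf1r*, had 16 UMIs, 10 of them in fibroblast-like cells. *Flt3l* had 122 UMIs over several classes, *Il3* had 12, and *Il5* had 43, all in T cell-like cells.

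Genes outside the set were compared with each member over the 27 classes of at least 50 cells, by Pearson correlation of log2 levels. The 3 most alike are given. *Csf1r* was most like *Wdfy2* (0.911), *Cd68* (0.898), and *Nceh1* (0.887). *Csf2ra* was most like *Nfam1* (0.883), *Mpeg1* (0.863), and *Cfp* (0.847), and *Csf3r* most like *Lrg1* (0.955), *Dgat2* (0.944), and *Adipor1* (0.938). *Csf2rb* and *Csf2rb2* shared *Ago4* as the most alike gene (0.831 and 0.802), followed by *Slc6a6* (0.813) and *Il10ra* (0.805) for the first and *Zbtb18* (0.784) and *Tbc1d8* (0.755) for the second. *Csf2rb* and *Csf2rb2* correlated with each other at 0.94 and *Csf1r* with *Csf2rb* at 0.53.

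*Flt3* was most like the type 1 DC gene *Xcr1* (0.946), with *2310031A07Rik* (0.942) and *Ctnnd2* (0.923). Among these classes, *Xcr1* was highest in the type 2 DC-like cells of the graft, at 32.6 CPM. *Kit* had the lowest values of the 10 members, with *Rubcnl* (0.790), *Tenm4* (0.782), and *Robo4* (0.716). *Csf1* was most like *Tnfrsf23* (0.895), *Rnf144a* (0.892), and *Steap4* (0.874), and *Kitl* most like *P4ha2* (0.971), *Efemp2* (0.970), and *Bgn* (0.970). For *Csf2* the genes were *Abi3bp* (0.987), *Tshz3* (0.983), and *Zfp462* (0.982), from classes that leave out the 14 basophil-like cells of the graft. These values rest on the fibroblast-like cells, with 39 of their 42 *Csf2* UMIs in 1 cell. The classes also leave out the 25 endothelial-like cells, highest in *Kitl* in the graft, and the 37 mature DC-like cells, highest there in *Kit*. Among the classes used, *Kitl* was highest in the fibroblast-like cells.

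Promoters of 300 bases around the start of transcription (RefSeq, GRCm38.p6) were found for 8 of the 10 members; *Csf1r* and *Csf2rb* were not matched by name. They were read for half-sites of the vitamin D receptor on either strand, which are AGGTCA (in 16.3% of all 32817 promoters), GGGTCA (in 13.7%), AGTTCA (in 14.0%), and GGTTCA (in 10.4%). At least 1 of the 4 occurs in 43.7% of promoters. The promoter of *Kit* (chromosome 5, 75574737 to 75575036) holds none: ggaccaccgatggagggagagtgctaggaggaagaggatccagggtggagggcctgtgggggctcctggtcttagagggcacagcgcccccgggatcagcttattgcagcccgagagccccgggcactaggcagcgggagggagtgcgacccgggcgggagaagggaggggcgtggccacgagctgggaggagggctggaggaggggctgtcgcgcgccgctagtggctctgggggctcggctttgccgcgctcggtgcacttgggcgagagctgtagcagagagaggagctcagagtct. That of *Flt3* (147400440 to 147400739 on the same chromosome) holds AGTTCA at position 282, and that of *Csf2* holds 1 half-site. The other 5 hold none, so 2 of the 8 promoters hold any. Regions farther from the start were not read, and binding of the receptor was not measured.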

How the data were processed

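The series holds 3 droplet libraries of mouse cells, Co-Mac, VD-Mac, and hSTSG, and each group has 1 library. The authors deposited raw UMI counts per gene and cell barcode, made with Cell Ranger 3.1.0 per the file headers. The submitters' processing notes also name Seurat 3.1.1 and the genome build mm9, the methods of the paper name a human build, and the gene IDs are those of mouse Ensembl. Coordinates were therefore taken by gene ID from GENCODE annotation of GRCm38. Counts were filtered here to barcodes with at least 300 genes, under 100000 gene UMIs, and under 10% mitochondrial UMIs, which kept 7257 of 7866, 8825 of 9794, and 2144 of 2644 barcodes with 132574308, 116461484, and 22646544 gene UMIs. Kept barcodes shared between libraries numbered 15 (Co-Mac and VD-Mac), 3 (Co-Mac and hSTSG), and 6 (VD-Mac and hSTSG).

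Both cultures together, the graft alone, and then the myeloid and DC-like cells of the graft were clustered with Seurat 5.3.0 under R 4.3.3 (scale factor 10000, 2000 variable genes, 15 principal components, 15 neighbors, resolution 0.5, seed 1). The members and the list genes were left out of the variable genes, so no class was made from them. Clusters were named from hand-written marker lists with a mean log2 ratio to the other cells of at least 0.5 (5 CPM added) and at least 3 markers at 10 CPM. Among these lists, the one with most markers in the top 10 genes of the cluster gave the name, and ties went to the higher score. A cluster went unnamed if any other list had more of its top 10 genes, or if it was shallow with no own marker there. The erythroid name also needed a marker other than a globin in 25% of the cells, because globin RNA is found free in droplets. In hSTSG, the erythroid list therefore gave no name although it scored above the list used in clusters 0 (neutrophil, 1.99 and 1.77) and 2 (monocyte, 1.89 and 1.39), and in cluster 5 the B lineage list scored above that of mature DCs (4.25 and 3.37). The marker lists were set before the clusters were made and the naming rule after they were seen. Names end in "-like" for that reason. The members, the marker lists, and the lists of other genes were chosen with earlier results of these data known, and the text names all 10 members, list genes past the call over all cells and in 5 classes (some are not reported here), and the 3 genes most alike to each member.

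Levels are CPM of summed UMIs with exact Poisson intervals, ratios have exact conditional binomial intervals, shares have exact binomial intervals, and differences of receptor balance have exact intervals of the conditional odds ratio. Ratios against a count of 0 use a floor of 3 counts. Classes with fewer than 50 cells in either culture were not compared. For the share of cells in which a gene was detected, each cell was first thinned to 2000 UMIs, and cells with fewer were left out. Python 3.11.15 was used with numpy 2.4.6, scipy 1.17.1, pandas 2.3.3, and matplotlib 3.10.9. The intervals and the call were tested on simulated data, and the outcome is not given here. Doublets were kept. Scrublet (scanpy 1.11.5) called 4, 2, and 8 cells at its automatic threshold, which is too few to be of use, so the highest scores were removed as an alternative. A rate of 0.8% per 1000 barcodes gives 457, 691, and 45 cells, and with ties at the limit 474, 746, and 46 were removed. Other alternatives were size factors, the minimum level, a 1.5-fold call, 5% mitochondrial UMIs, 500 genes, the mix of cell classes, the mean over cells, resolution 0.8, 30 principal components, separate clustering of the cultures, other GM-CSF receptor genes, and thinning to 1000 or 4000 UMIs. Antibody hashtags were not used, since no map from hashtag to mouse is given.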

Additional observations from a re-analysis of the deposited data

Results flagged for a closer look

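In hSTSG, 1195935 UMIs belong to hashtag antibodies, in 10 mouse and 10 human hashtag features, while the 10 mouse hashtag features of each culture have 0. This signal lies outside the gene counts used here and was not analyzed, because no map from hashtag to mouse is given. The library therefore counts as 1 sample for *Csf1*, *Csf2*, *Kitl*, and the receptors.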

How the results depend on the processing

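No paired analysis was possible because each group has 1 library. Over all cells, *Kit* was called higher in VD-Mac under each of the 8 alternatives. Without a minimum level, 3 members were called (*Kit* higher, *Flt3* and *Kitl* lower), beside 28.7% of 19719 genes. At 1.5-fold, 1 member and 18.7% of genes were called. Of 68 values for the comparisons under alternatives, 53 stayed the same, 8 moved up, and 7 moved down. Balances and shares counted as the same within counting error, and counts of called members or of clusters within 1.5-fold. A change of direction could be labeled for the receptor balances only, and none of these had it.

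For the log2 difference in *Csf1r* over *Csf2rb* between clusters 7 or 5 (or their counterparts) and mature DC-like cells, Co-Mac gave 5.85 with doublets removed and 4.42 with *Csf2ra* as the second gene. VD-Mac gave 6.81 at resolution 0.8, 6.68 with 30 principal components, and 5.16 with *Csf2ra*. Between the cultures, mature DC-like cells gave -1.15 at resolution 0.8 and -0.44 with *Csf2ra*. In the graft, the mean over cells gave 96.6% of *Csf2* to basophil-like cells, 9.02% of *Csf1* to fibroblast-like and 72.5% to neutrophil-like cells, and 59.3% of *Kitl* to fibroblast-like cells. The *Csf1* share of neutrophil-like cells was 25.3% at resolution 0.8 and 37.1% with 5% mitochondrial UMIs, which gave 72.1% of *Kitl* to fibroblast-like cells. The cause was not tested.

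Of 54 single log2 ratios over all cells, 24 moved beyond counting error (13 up, 11 down), as did 53 of 323 by class (30 up, 23 down). Shares of cells at other thinning depths moved for 98 of 162 (47 up, 51 down). Size factors shifted the median log2 ratio of all genes from -0.10 to -0.05.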
